A study of Mus musculus with 14 samples.

Results

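Interferon-stimulated genes are genes whose transcripts rise when a cell senses interferon, and many of their products block a step of virus growth. A list of 49 of them was followed over 7 groups of mouse cells with 2 arrays each, 14 arrays in all. The genes were listed by symbol, older names were matched through the gene identifier, and the list was drawn up because the genes lay low in one of the conditions, so that contrast is described below without a test. A probe was present for 47 of the 49, with none for Dtx3l and Ifi44. Of these 47, 39 passed the detection filter, which keeps a gene that some group detected on its 2 arrays alike (detection p-value under 0.05), as 10481 genes of the array did in all. The 8 that did not pass were Ifih1, Ifit1, Oas1a, Oas3, Mx1, Isg20, Iigp1 and Xaf1. At the edge of the filter, Trim30a had a detection p-value of 0.0163 on the weaker of its best pair of arrays and Ifi35 one of 0.0113, while the closest failure, Iigp1, had 0.1216.

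All cells were labelled C57/B6, and total RNA was taken from cells sorted by flow cytometry. The study's title asks how the regulatory elements of Oct4 (the gene Pou5f1) act in naive and primed pluripotency. EpiSCs (epiblast stem cells) came from epiblasts, labelled E6.5 for the first array and E6.6 for the second. Descriptions of other groups also count upward between arrays, so no difference in stage is read from these labels. EpiLCs (epiblast-like cells) were sorted as GFP-negative and RFP-positive from a double-reporter line, in which the distal enhancer of Oct4 drives GFP (O4-DE-GFP). Its second transgene, O4-PE-RFP, is tdTomato in a 6 kb Oct4 fragment without the distal enhancer, driven by the proximal enhancer and promoter. Embryonic stem cells (ESCs) of this line gave 3 more groups: GFP+RFP- cells grown in N2B27 with LIF and 2i (3 µM CHIR99021 and 1 µM PD0325901), GFP+RFP+ cells in serum with LIF, and GFP+RFP- cells in serum with LIF. The remaining groups were single-reporter ESCs with O4-DE-GFP alone in serum with LIF, and mouse embryonic fibroblasts (MEFs). No sort gate is given in the labels for the EpiSCs, the single-reporter ESCs or the MEFs, and no feeder layer is named or denied for any group. Nothing in the labels says that the arrays of a group came from separate cultures, so p-values measure the spread between arrays, which may be technical.

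Type I and type III interferons signal through JAK1 and TYK2 to factors that include STAT2 and IRF9 and act at the interferon-stimulated response element (ISRE), and interferon gamma acts through the gamma-activated site (GAS). The response includes RNA sensors, transcription factors that feed the loop, the ubiquitin-like protein ISG15 and its protease USP18, RNA-binding and RNA-degrading effectors, and GTPases that attack vacuoles of intracellular microbes. Pluripotent cells are known for a weak interferon response, and some of these genes are expressed in them without added interferon.

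The promoters of 38 of the 49 genes were found in RefSeq's table of gene starts (GRCm38.p6), and 11, Usp18 and Ifi27 among them, had no entry. In the 250 bases before a start, on either strand, ISRE letters (GAAA, any 2 bases, GAAA) occurred in 17 of the 38 genes (44.7%) and in 3.46% of all 27025 genes in the table. GAS letters (TTCNNNGAA) occurred in 9 of the 38 (23.7%) and in 8.13% of all genes, and ISRE and GAS letters overlapped in 1 of the listed genes. The windows below are shown because they carry these letters in genes described later, with the ISRE letters in capitals, 40 bases before them and 20 after, 5′ to 3′ along the gene's strand. They lie at chr4:156200855-156200936 (Isg15, minus strand), chr12:26456543-26456612 (Rsad2, minus), chr8:71537567-71537642 (Bst2, minus), chr3:142620564-142620633 (Gbp2, plus), chr3:142594670-142594739 (Gbp2b, plus), chr11:58199482-58199551 (Igtp, plus) and chr11:58214873-58214942 (Irgm2, plus).
Isg15: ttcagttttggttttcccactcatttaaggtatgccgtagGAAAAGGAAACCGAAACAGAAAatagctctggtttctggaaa
Rsad2: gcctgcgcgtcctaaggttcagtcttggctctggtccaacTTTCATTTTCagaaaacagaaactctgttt
Bst2: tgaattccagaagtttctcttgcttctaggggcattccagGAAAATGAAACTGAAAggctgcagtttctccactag
Gbp2: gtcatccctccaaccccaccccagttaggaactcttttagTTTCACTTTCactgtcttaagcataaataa
Gbp2b: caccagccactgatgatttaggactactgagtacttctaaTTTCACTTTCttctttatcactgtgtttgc
Igtp: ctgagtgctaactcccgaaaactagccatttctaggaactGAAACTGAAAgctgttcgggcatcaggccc
Irgm2: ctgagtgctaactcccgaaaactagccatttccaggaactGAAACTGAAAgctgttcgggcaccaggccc
Isg15 holds 3 overlapping matches that begin 78 bases before its start, and Bst2 holds 2. Gbp2 and Gbp2b carry the same 10 letters on the reverse strand, 59 and 137 bases before their starts, within windows that are otherwise unlike (29 of 70 bases identical). Irgm2 and Igtp share 68 of 70 bases. A match of letters is a description and was not tested for binding.

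Levels are log2 signals after background correction and quantile normalization of the deposited intensities. Array medians of the scanner signal lay between 142.6 and 209.4 on 12 arrays and at 313.5 and 316.8 on the EpiSC arrays. Across genes, which are not independent replicates, arrays of one group correlated at 0.9965 to 0.998, except the EpiSC arrays at 0.9759. Between the EpiSC arrays 5.63% of all genes differed at least 2-fold, against 0.00954% to 0.191% in the other groups, and results that rest on the EpiSCs are given per array. The 6 pluripotency markers of the fixed list, among them Pou5f1, Nanog and Sox2, were detected on every array of the 6 pluripotent groups and 2 of the 6 on each MEF array, while all 12 fibroblast markers were detected on both MEF arrays. In bulk RNA, fewer cells that express a gene and less RNA per cell cannot be told apart.

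The genes were most widely detected in serum and least in EpiLCs. Of the 39, 32 were detected on both arrays in EpiSCs, 20 in EpiLCs, 28 in 2i cells, 35 in single-reporter cells, 37 in each serum gate of the double-reporter line and 27 in MEFs. No array of the group detected 17 of the 39 in EpiLCs, 12 in MEFs and 9 in 2i cells. Of all probes, 46.4% and 46.5% were detected on the MEF arrays, against 49.9% to 53.8% on the other arrays. The lowest detected signal was also higher in MEFs, at 6.185 and 6.17 log2 against 5.607 to 5.868 elsewhere. Since the list was chosen for genes low in 2i cells, the 2i and serum counts are not independent of that choice. The lowest of the 7 group means fell in EpiLCs for 23 genes, in MEFs for 7, in 2i cells for 6, in single-reporter cells for 3 and in no other group. The highest fell in single-reporter cells for 13, in EpiSCs for 7, in each serum gate for 6, in MEFs for 4, in 2i cells for 2 and in EpiLCs for 1. Trim30a passed the filter through the RFP-positive serum cells alone, Oasl1 and Rtp4 through the serum gates of the double-reporter line alone, and Irf7 through the 3 serum groups alone.

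**Figure D1:**
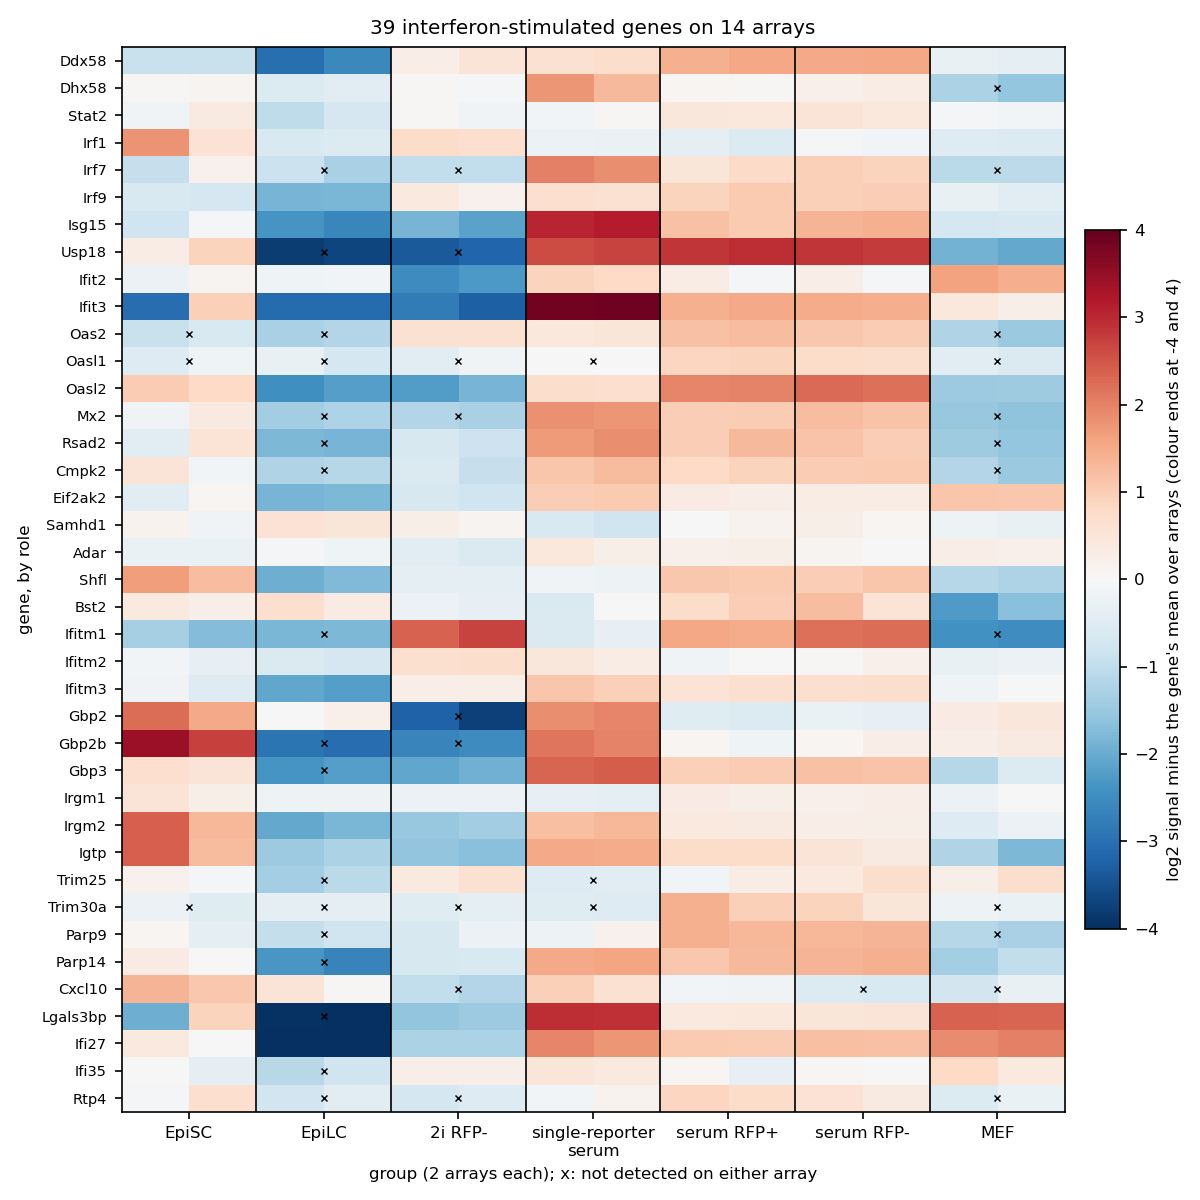
Each row is a gene (grouped by role, listed from RNA sensors at the top to other genes at the bottom), each column an array, and the colour the log2 signal minus the gene's mean over the 14 arrays, with crosses where no array of the group detected the gene. EpiLCs hold the lowest mean for 23 of the 39 genes, and the crosses number 17 there.

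The contrast that chose the list was 2i cells against RFP-negative serum cells. There 24 of the 39 genes lay at least 2-fold lower in 2i and 0 higher, where 6.66% of all genes lay lower and 3.83% higher by as much. Their median difference was -1.18 log2, against 0.01 for all genes. Usp18, the protease that strips ISG15 from proteins and damps the type I receptor, was not detected in 2i cells (5.53 and 5.71), against 11.74 and 11.68 in RFP-negative serum cells, at least 57.8-fold lower. Isg15 stood at 6.53 and 6.25 in 2i cells, against 9.76 and 9.83 in RFP-negative serum cells. Oasl2, an OAS-like protein, stood at 6.73 and 7.09 in 2i cells, against 11.21 and 11.16 in RFP-negative serum cells. For each of these 3 genes the arrays of the groups lay far apart and did not overlap.

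Not every gene of the list was low in 2i. Ifitm1, a membrane protein that hinders virus entry, stood at 9.54 and 9.86 in 2i cells, against 9.36 and 9.42 in RFP-negative serum cells. The transcription factor gene Irf1 stood at 12.50 and 12.43 in 2i cells, against 11.69 and 11.65 in RFP-negative serum cells, a difference of 0.79 log2. Samhd1, which degrades deoxynucleotides, differed by 0.02 log2 and the RNA sensor gene Dhx58 by -0.28 log2. Of the 12 fibroblast markers, 1 lay at least 2-fold higher and 3 lower in 2i, and their summed signal was 5847 and 5898 in 2i cells against 18858 and 19076 in RFP-negative serum cells, while of the 3 measured myeloid and lymphoid markers 1 (Lyz2) lay lower. Their part in the differences was not tested.

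The serum gates were alike. No gene of the list differed by 2-fold between RFP-positive and RFP-negative serum cells (0 higher and 0 lower, where 0% of all genes lay higher and 0.0477% lower), and the median difference was -0.06 log2. The largest were Ifitm1, at 8.72 and 8.65 in RFP-positive cells against 9.36 and 9.42 in RFP-negative cells, and Trim30a, a regulator of inflammatory signalling, which was higher by 0.50 log2 in RFP-positive cells. Trim30a lay near the detection limit, at 6.56 and 6.10 in RFP-positive cells against 6.04 and 5.62 in RFP-negative cells, where 1 array detected it. The filter kept it through RFP-positive cells alone and so worked towards this difference. Against RFP-positive serum cells, 2i cells had 25 genes at least 2-fold lower (background 6.62%) and 2 higher (background 4.34%), Irf1 by 1.15 log2 and Ifitm1 by 1.01 log2. Without background correction, and in the authors' processed values, 15 lay lower and 1 higher.

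EpiLCs were compared with RFP-positive serum cells, whose arrays did not choose the list but resemble those that did, so the direction is not independent of the choice. In EpiLCs 33 of the 39 genes fell and 2 rose, where 26.7% of all genes fell and 28.3% rose. The median difference was -2.14 log2, against 0.02 for all genes. By role, the genes that fell were both RNA sensors that passed, 3 of 4 transcription factors, both genes of the ISG15 system, 1 of 2 IFIT genes, all 3 OAS genes, 6 of 8 other antiviral effectors, all 3 Ifitm genes, 5 of 6 GTPases, all 4 ubiquitin and ADP-ribose genes, 1 of 2 secreted proteins and 3 of 3 others. The call of the sensor gene Dhx58 ended without background correction and in the authors' processed values (adjusted p = 0.05 by limma), and that of Adar without the second RFP-positive or the second EpiLC array (adjusted p 0.071 and 0.097). Of the 33, 17 were not detected on either EpiLC array. The filter worked towards this result for Trim30a, Oasl1, Rtp4 and Irf7, which it kept through serum cells alone.

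Usp18 was not detected in EpiLCs (5.07 and 5.21), against 11.74 and 11.83 in RFP-positive serum cells, at least 63.9-fold lower (limma, adjusted p = 3e-09). Ifi27, a small membrane protein gene, stood at 5.57 and 6.09 in EpiLCs, where 1 array detected it, against 11.84 and 11.80 in RFP-positive serum cells, a fall of 5.98 log2 (SE 0.17, adjusted p = 7.8e-09). Ddx58, which encodes the RNA sensor RIG-I, stood at 5.87 and 6.32 in EpiLCs, against 10.31 and 10.43 in RFP-positive serum cells (-4.27 log2, SE 0.14, adjusted p = 1.5e-08). In none of these did the arrays of the groups overlap. Irf9, the DNA-binding partner of STAT2, fell by 2.80 log2 (SE 0.09, adjusted p = 1.4e-08), and Stat2 itself by 1.28 log2 (SE 0.16, adjusted p = 0.00011). Shfl, an inhibitor of ribosomal frameshifting, fell by 2.93 log2 (SE 0.13), and Eif2ak2, the kinase PKR that halts translation on double-stranded RNA, by 2.14 log2 (SE 0.14).

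The 4 genes that were not called were Bst2, Ifit2, Irf1 and Cxcl10. Bst2, which encodes tetherin, stood at 10.71 and 10.35 in EpiLCs, against 10.76 and 11.01 in RFP-positive serum cells (-0.36 log2, 95% interval -0.98 to 0.26, adjusted p = 0.3). Ifit2 stood at 7.92 and 8.0 in EpiLCs, against 8.40 and 8.04 in RFP-positive serum cells (-0.26 log2, 95% interval -0.63 to 0.11, adjusted p = 0.21). Irf1 differed by -0.14 log2 (95% interval -0.79 to 0.52, adjusted p = 0.72). The 2 genes that rose were Samhd1 (0.43 log2, SE 0.11, adjusted p = 0.0089) and Gbp2 (0.62 log2, SE 0.22, adjusted p = 0.036). The call of Samhd1 ended without the first RFP-positive or the first EpiLC array, and that of Gbp2 without any array of the EpiLCs or of either serum gate (adjusted p 0.051 to 0.16). Of the 12 fibroblast markers 0 rose and 6 fell, with a summed signal of 3962 and 3883 in EpiLCs against 18178 and 17923 in RFP-positive serum cells, and their part was not tested.

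Set beside 2i cells, with no test, EpiLCs had 15 of the 39 genes at least 2-fold lower and 3 higher, where 9.15% of all genes lay lower and 11.8% higher. Without background correction, and in the authors' processed values, 9 lay lower. The 3 were Gbp2, Ifit2 and the chemokine gene Cxcl10. Gbp2 stood at 8.89 and 9.07 in EpiLCs and was not detected in 2i cells (5.62 and 5.14), at least 8.7-fold higher. Ifit2, whose product binds foreign RNA, stood at 7.92 and 8.0 in EpiLCs, against 5.59 and 5.81 in 2i cells, where neither array detected this probe and 1 detected another probe of the gene. Genes lower in EpiLCs included Ifi27 (-3.68 log2), Ddx58 (-3.18 log2), Ifitm3 (-2.40 log2) and Irf9 (-2.11 log2), and Ifitm1 was at least 15.1-fold lower. Usp18 and Gbp2b were below background in both groups.

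**Figure D2:**
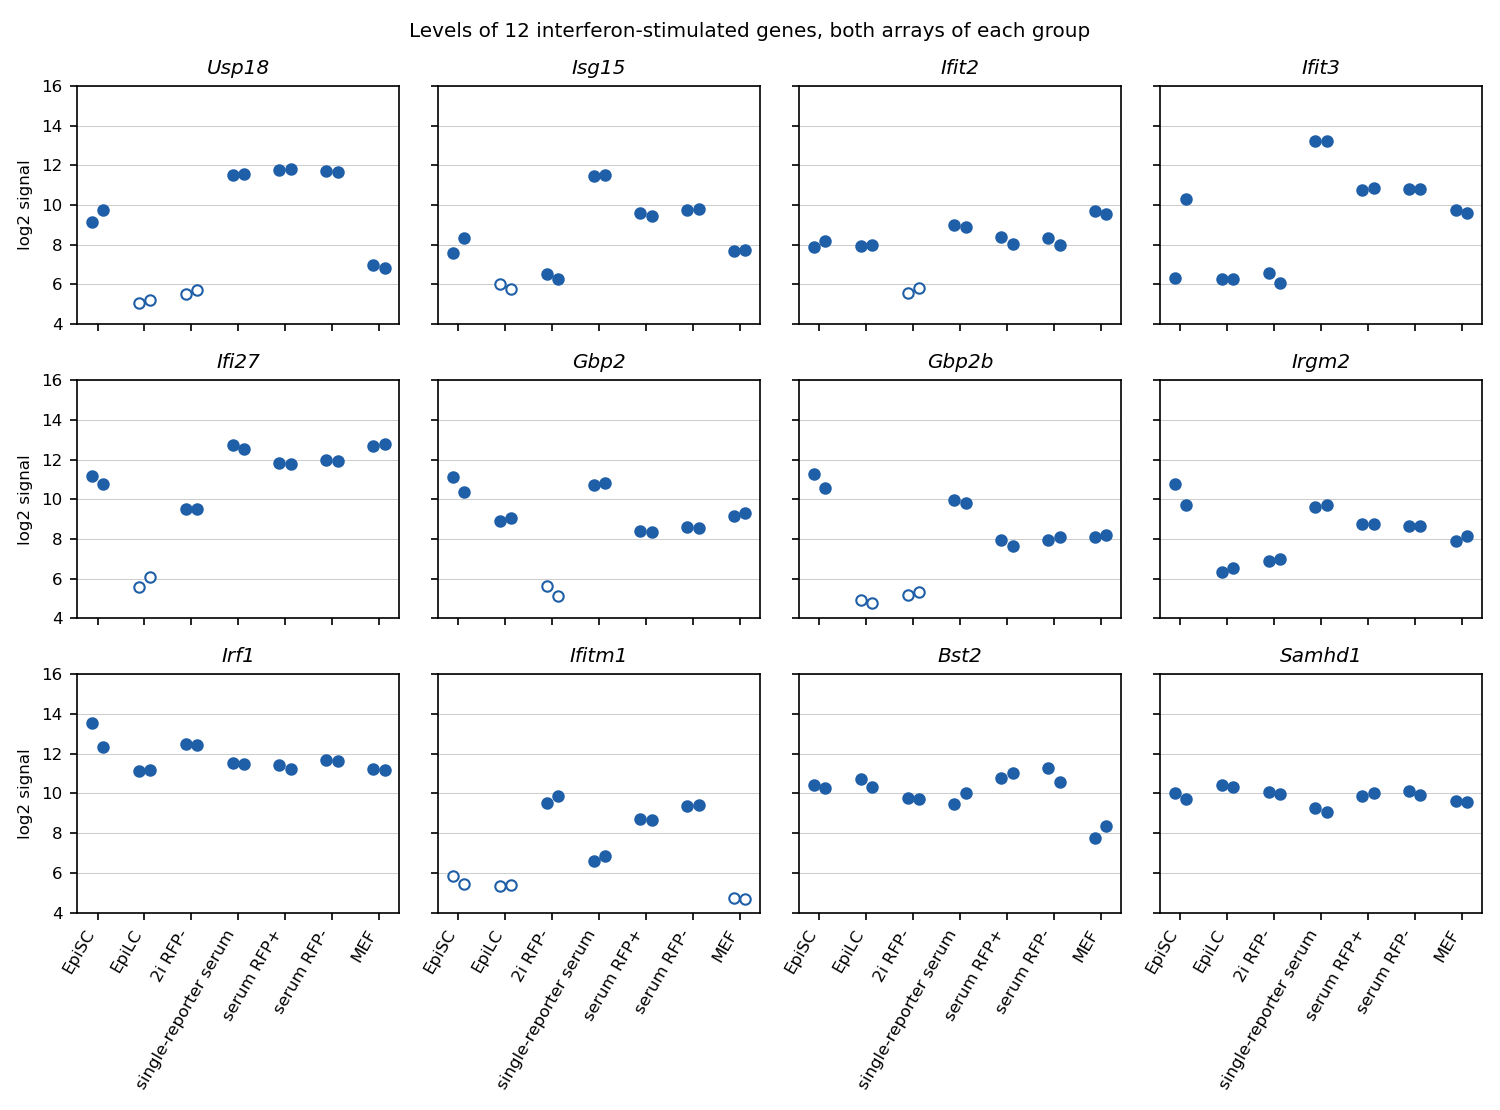
Log2 signal of 12 genes on both arrays of each group (vertical axis, horizontal axis the groups), filled where both arrays detected the gene and open otherwise. Usp18 lies at 5.07 and 5.21 in EpiLCs, against 11.74 and 11.83 in RFP-positive serum cells, while Gbp2 lies low in 2i cells alone, at 5.62 and 5.14.

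EpiSCs and EpiLCs, both post-implantation-like states, differed across the list, and the arrays of neither group entered the contrast that chose it. The groups also differ in origin, from epiblasts or from the double-reporter line, and a sort gate is given for the EpiLCs alone. Median scanner signals were 313.5 and 316.8 on the EpiSC arrays, against 148.6 and 142.6 on the EpiLC arrays. These differences and the state of the cells cannot be told apart. In EpiSCs 30 of the 39 genes rose and 1 fell, where 27.9% of all genes rose and 28.5% fell. The median difference was 1.38 log2, against -0.001 for all genes. Of the 30, 1 (Oas2) lay below background in both groups. Without any detection filter 32 of 47 rose and 2 fell. The count was 31 without the second EpiSC array and 32 without the first, in fits that assume the lone EpiSC array to vary like the arrays of the other groups.

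**Figure D3:**
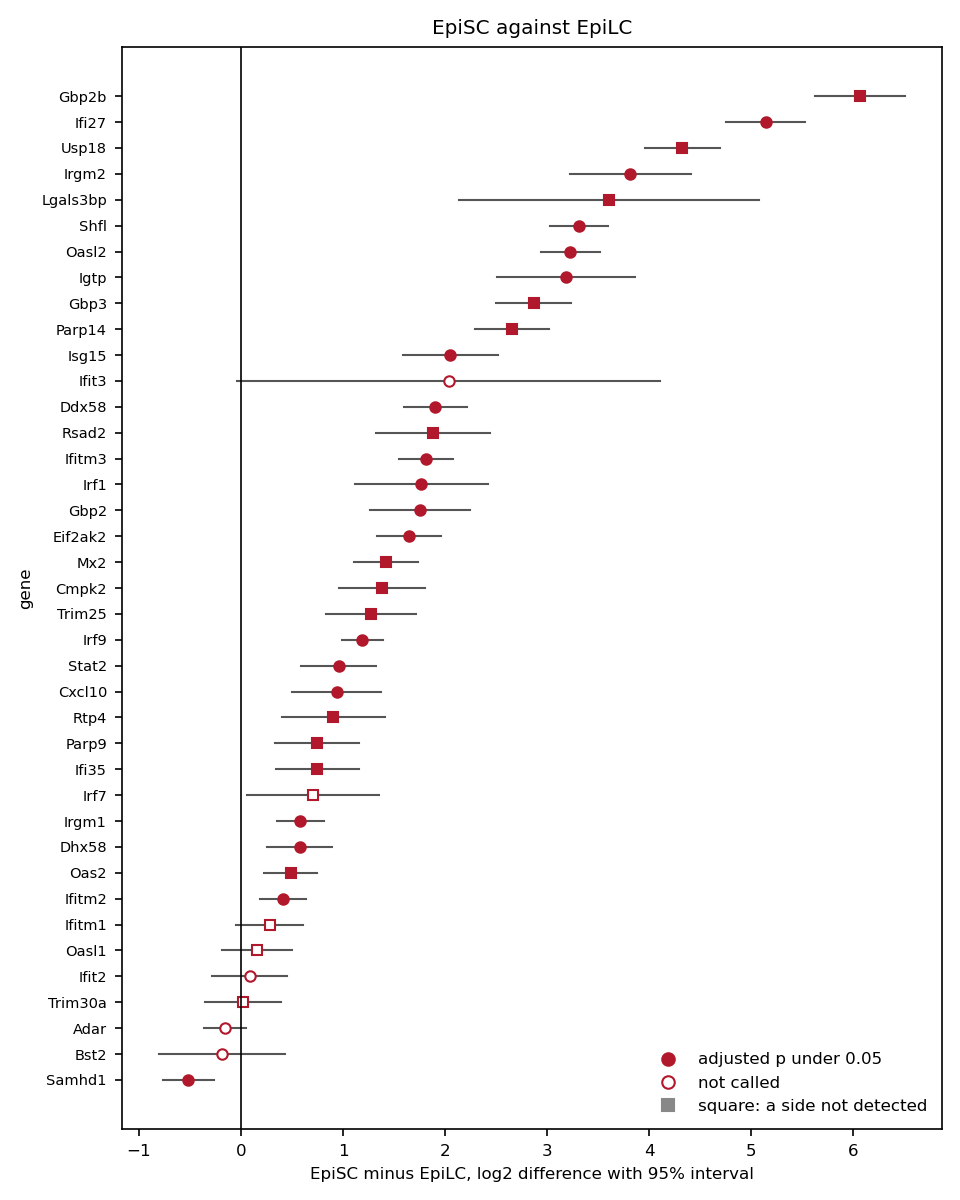
Difference EpiSC minus EpiLC on the log2 scale (horizontal axis) with 95% intervals for 39 genes (vertical axis), filled where the adjusted p is under 0.05 and square where at least 1 side was not detected. Gbp2b, Ifi27 and Usp18 stand at the top, and Samhd1 is the gene that fell.

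All 6 GTPase genes measured rose, by 0.58 log2 in Irgm1 and by more in the others. Gbp2b stood at 11.26 and 10.56 in EpiSCs and was not detected in EpiLCs (4.90 and 4.78), at least 34.8-fold higher (adjusted p = 2e-08). Irgm2, an immunity-related GTPase that acts at vacuole membranes, stood at 10.78 and 9.72 in EpiSCs, against 6.33 and 6.54 in EpiLCs (3.82 log2, SE 0.26, adjusted p = 2.5e-06). Igtp, of the same family, stood at 10.59 and 9.47 in EpiSCs, against 6.74 and 6.95 in EpiLCs (3.19 log2, SE 0.30, adjusted p = 1.9e-05). All EpiSC values lay above all EpiLC values for these genes, with the first EpiSC array the higher one. Gbp3 was at least 6.94-fold higher and Gbp2 rose by 1.76 log2 (SE 0.22, adjusted p = 0.00011). Irgm1 rose by 0.58 log2 (SE 0.10, adjusted p = 0.00095) on its brightest probe, while another detected probe differed by 3.84 log2.

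Both genes of the ISG15 system rose. Usp18 stood at 9.17 and 9.76 in EpiSCs, against undetected values of 5.07 and 5.21 in EpiLCs, at least 12.8-fold higher (adjusted p = 5.3e-08). Isg15 stood at 7.59 and 8.35 in EpiSCs, against 6.05 and 5.79 in EpiLCs, where 1 array detected it (2.05 log2, SE 0.21, adjusted p = 2.9e-05). Ifi27 stood at 11.18 and 10.77 in EpiSCs, against 5.57 and 6.09 in EpiLCs (5.14 log2, SE 0.17, adjusted p = 2.6e-08). The groups did not overlap for any of the 3.

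Among the sensors, Ddx58 stood at 8.0 on both arrays in EpiSCs, against 5.87 and 6.32 in EpiLCs (1.90 log2, SE 0.14, adjusted p = 3.3e-06), and Dhx58 rose by 0.57 log2 (SE 0.14, adjusted p = 0.0067). Of the 4 transcription factor genes 3 rose, Irf1 by 1.77 log2 (SE 0.29, adjusted p = 0.0006), Irf9 by 1.19 log2 (SE 0.09, adjusted p = 4.3e-06) and Stat2 by 0.96 log2 (SE 0.16, adjusted p = 0.00075). Irf7, the factor that amplifies interferon alpha transcription, was detected on 1 EpiSC array and no EpiLC array and was not called (adjusted p = 0.061). Oasl2 rose by 3.23 log2 (SE 0.13, adjusted p = 8.4e-08). Shfl stood at 12.24 and 11.82 in EpiSCs, against 8.61 and 8.81 in EpiLCs (3.31 log2, SE 0.13, adjusted p = 6.1e-08). Irf1 stood at 13.55 and 12.33 in EpiSCs, against 11.15 and 11.20 in EpiLCs.

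Smaller rises were called for Ifitm3 (1.81 log2), Eif2ak2 (1.64 log2), the chemokine gene Cxcl10 (0.94 log2) and Ifitm2 (0.41 log2). Rsad2, which encodes viperin, was at least 1.92-fold higher, its neighbour Cmpk2 at least 2.14-fold and Parp14, an ADP-ribosyltransferase gene, at least 4.11-fold. Samhd1 fell by 0.52 log2 (SE 0.11, adjusted p = 0.0033). Bst2 (-0.19 log2), Ifit2 (0.08 log2) and Adar (-0.16 log2), which encodes an editor of double-stranded RNA, were not called. The call of Samhd1 ended when only the EpiSC and EpiLC arrays were fitted, as did those of Oas2, Ifitm2, Parp9, Lgals3bp, Ifi35 and Rtp4 (adjusted p 0.053 to 0.086), and those of Ifi35 and Rtp4 ended without the first EpiLC array.

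The EpiSC arrays themselves were apart. Of the 39 genes, 6 differed at least 2-fold between them, 3 higher on the second array and 3 lower, against 0 in each of the other groups. Ifit3 stood at 6.31 on the first array and 10.30 on the second, and was not called against EpiLCs, at 6.27 on both arrays (2.04 log2, SE 0.92, adjusted p = 0.086). Without the first EpiSC array the difference was 4.03 log2, and without the second 0.05 log2. Lgals3bp, a secreted glycoprotein gene, stood at 7.49 and 10.31 in EpiSCs and was not detected in EpiLCs, at least 8.63-fold higher in EpiSCs (adjusted p = 0.0011). It was at least 23-fold higher without the first EpiSC array and at least 3.24-fold higher without the second, both called. Irf7 was called without the first (limma, adjusted p = 0.00022) and not without the second (adjusted p = 0.46). Irf1, Igtp and Irgm2 ran the other way, and Irf1 rose by 1.16 log2 without the first array and by 2.38 log2 without the second.

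Of the 12 fibroblast markers, 5 were at least 2-fold higher on the second EpiSC array and 0 lower. Acta2 stood at 10.19 and 15.13, Col1a1 at 6.04 and 9.57, Dcn at 7.59 and 11.13, Twist2 at 5.80 and 8.90 and Mgp at 5.34 and 7.06. The remaining markers were also higher on the second array, each by less than 2-fold. The summed signal of the 12 was 3191 and 41611 in EpiSCs, against 3962 and 3883 in EpiLCs. Most of the 41611 came from Acta2, so the sum does not show a like rise of all 12. Col1a2 (5.17 and 5.57) and Col5a2 (4.73 and 5.27) stayed low on both EpiSC arrays. The mean log2 signal of the 12 was 6.29 and 7.98 in EpiSCs, against 6.45 and 6.48 in EpiLCs. By the test, 2 of the 12 rose in EpiSCs. On the first EpiSC array 5 of the 12 were detected, as on each EpiLC array. The 3 myeloid and lymphoid markers that passed, of 8 listed, summed to 147 and 385 in EpiSCs against 132 and 109 in EpiLCs, and 1 (Cd3e) rose. The part of either marker list in the differences was not tested.

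**Figure D4:**
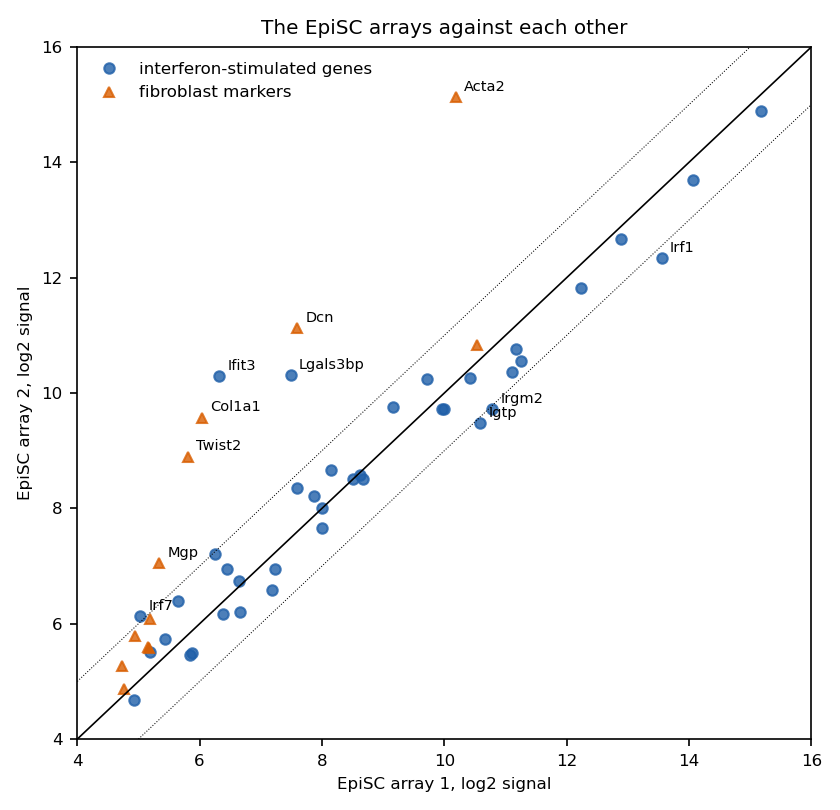
Log2 signal on EpiSC array 2 against array 1 for 39 interferon-stimulated genes (circles) and 12 fibroblast markers (triangles), with the line of equality and dotted lines at 2-fold. Ifit3 (6.31 and 10.30), Lgals3bp (7.49 and 10.31) and Irf7 (5.03 and 6.13) lie above the upper line, as do 5 fibroblast markers, Col1a1 and Acta2 among them. Irf1, Igtp and Irgm2 lie below the lower line.

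MEFs, fibroblasts cultured from embryos, served as a differentiated reference. Compared with MEFs, EpiSCs had 21 of the 39 genes higher and 8 lower, where 40% of all genes were higher and 36.8% lower. EpiLCs had 5 higher and 21 lower, where 41.9% of all genes were higher and 36.3% lower. Single-reporter ESCs had 26 higher and 3 lower, where 38.7% of all genes were higher and 39.6% lower. There the filter worked towards a higher value of Irf7, which it kept through serum cells alone. The comparisons share the MEF arrays and are not independent of each other. In each, 1 of the genes called higher lay below background on both sides, Oas2 in EpiSCs, Ifitm1 in EpiLCs and Oasl1 in single-reporter cells. Median differences were 0.68, -0.36 and 1.20 log2, against 0.04, 0.11 and -0.001 for all genes.

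Usp18 stood at 9.17 and 9.76 in EpiSCs and at 11.50 and 11.57 in single-reporter ESCs, against 6.98 and 6.84 in MEFs, higher by 2.56 log2 in EpiSCs (SE 0.16, adjusted p = 2.8e-07) and by 4.62 log2 in single-reporter cells (SE 0.16, adjusted p = 5e-09). Igtp was higher than in MEFs in EpiSCs (3.34 log2, SE 0.30) and in single-reporter ESCs (3.02 log2, SE 0.30), and Shfl in EpiSCs (2.63 log2, SE 0.13) and single-reporter ESCs (1.00 log2, SE 0.13). Mx2, a dynamin-like antiviral GTPase gene, Rsad2 and Cmpk2 were not detected in MEFs. Mx2 was at least 1.44-fold higher in EpiSCs and at least 4.61-fold in single-reporter ESCs, and Rsad2 at least 1.47-fold and at least 4.85-fold.

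Some genes stood higher in MEFs than in EpiSCs and EpiLCs, though not always higher than in single-reporter ESCs. Ifi27 stood at 11.18 and 10.77 in EpiSCs and at 5.57 and 6.09 in EpiLCs, against 12.67 and 12.80 in MEFs, lower by 1.76 log2 (SE 0.17) and 6.90 log2 (SE 0.17). Lgals3bp was at least 63.2-fold lower in EpiLCs than in MEFs, where it stood at 11.78 and 11.76. In single-reporter ESCs Ifi27 stood at 12.75 and 12.56, close to MEFs, and Lgals3bp at 12.40 and 12.37, above MEFs. Ifit2 was lower than in MEFs (9.70 and 9.54) in EpiSCs, EpiLCs and single-reporter ESCs, by 1.57, 1.66 and 0.68 log2 (SE 0.16 each). Eif2ak2 was lower in EpiSCs (-1.28 log2) and EpiLCs (-2.93 log2) and was not called in single-reporter cells (-0.09 log2, SE 0.14). Bst2, at 7.78 and 8.37 in MEFs, was higher in EpiSCs, EpiLCs and single-reporter ESCs by 2.27, 2.46 and 1.67 log2 (SE 0.28 each), and was thus the gene of the list that rose most in EpiLCs. Ifit3 in EpiSCs was not called (-1.37 log2), was lower without the second EpiSC array (-3.36 log2) and higher without the first (0.63 log2, adjusted p = 0.0063).

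All 12 fibroblast markers were lower in EpiSCs and in EpiLCs than in MEFs. In single-reporter ESCs 2 were higher and 8 lower, and their summed signal was 127680 and 124163, against 202292 and 205452 in MEFs. Their part was not tested.

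Single-reporter ESCs and the RFP-positive cells of the double-reporter line, both grown in serum with LIF, differed in both directions. In single-reporter cells 18 of the 39 genes rose and 15 fell, where 29% of all genes rose and 29.8% fell. The filter worked towards the falls of Trim30a, Oasl1 and Rtp4, which it kept through serum cells of the double-reporter line alone. The median difference was 0.36 log2. The rises included Gbp2, at 10.72 and 10.81 in single-reporter cells against 8.39 and 8.33 in RFP-positive cells (2.40 log2, SE 0.22, adjusted p = 9.3e-06), Gbp2b (2.10 log2, SE 0.20, adjusted p = 1.1e-05), and Isg15, at 11.46 and 11.53 against 9.59 and 9.45 in RFP-positive cells (1.97 log2, SE 0.21, adjusted p = 2.5e-05). Dhx58 rose by 1.47 log2 (SE 0.14) and Irf7 by 1.32 log2 (SE 0.29). Ifitm1 fell by 1.98 log2 (SE 0.14), Oasl2 by 1.28 log2 (SE 0.13), Shfl by 1.25 log2 (SE 0.13) and Bst2 by 1.15 log2 (SE 0.28). Usp18 was not called (-0.25 log2, 95% interval -0.62 to 0.11).

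Of those 33 calls, 10 ended under some alternative run, with processing changed or an array left out. They include Ifit3 (2.40 log2), Igtp, Irgm2, Stat2 and Irf9. Ifit3 stood at 13.21 and 13.25 in single-reporter cells, against 10.78 and 10.88 in RFP-positive cells. For Ifit3, Igtp and Irgm2 the EpiSC arrays, which share the estimate of spread, lay at least 2-fold apart. Of the 12 fibroblast markers 8 rose and 0 fell in single-reporter cells, with a summed signal of 127680 and 124163 against 18178 and 17923 in RFP-positive cells. Interferon-stimulated genes that rose include Lgals3bp (2.55 log2), Ifi27 (0.84 log2), Gbp2 and Gbp2b, with higher means in MEFs than in RFP-positive cells. They also include Isg15, Gbp3, Dhx58 and Irf7, with lower means in MEFs than in RFP-positive cells. The part of the fibroblast markers was not tested. The groups differ in line and in reporters, a sort gate is given for the RFP-positive cells alone, and these cannot be told apart.

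**Figure D5:**
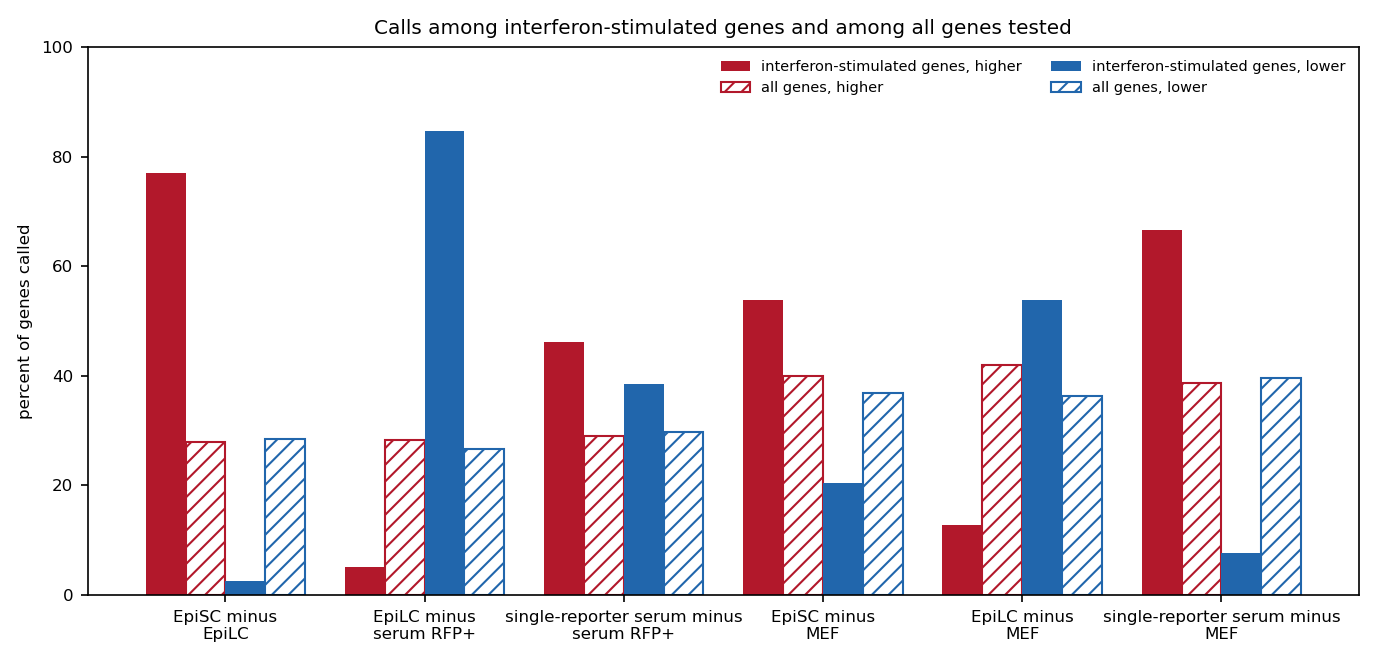
Percent of genes called higher (red) and lower (blue) in each tested comparison (horizontal axis), filled for the 39 interferon-stimulated genes and hatched for all 10481 genes. The lower share is widest in EpiLCs against RFP-positive serum cells (33 of 39) and the higher share in EpiSCs against EpiLCs (30 of 39).

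Neighbouring genes of one family did not always move as one. RefSeq's gene table places 22 of the 49 genes in 9 runs whose members lie within 100 kb of the next, among them Gbp3, Gbp2b and Gbp2 on chromosome 3, Ifitm2, Ifitm1 and Ifitm3 on chromosome 7, and Ifit2, Ifit3 and Ifit1 on chromosome 19. In EpiLCs Gbp2 stood at 8.89 and 9.07 while Gbp2b (4.90 and 4.78) and Gbp3 (5.64 and 5.79) were not detected, and in 2i cells Gbp2 and Gbp2b were not detected. Ifitm1 was not detected in EpiLCs or MEFs, where Ifitm2 stood at 12.41 and 12.33 in EpiLCs and 12.70 and 12.76 in MEFs, and Ifitm3 at 12.12 and 12.02 in EpiLCs and 14.08 and 14.21 in MEFs. Ifit2 was detected on all arrays of the EpiLCs and MEFs, and Ifit1 on no pair of arrays. Rsad2 and Cmpk2, neighbours on chromosome 12, were each highest in single-reporter cells and undetected in EpiLCs and MEFs. Between the EpiSC arrays they moved in opposite directions, Rsad2 at 6.25 and 7.21 and Cmpk2 at 7.18 and 6.59. Probes of related family members can share sequence, and cross-hybridisation was not checked.

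The genes with and without ISRE letters before their start were set side by side as a description. Over the 30 that had both a promoter entry and a measured level, the median difference of EpiSCs minus EpiLCs was 1.82 log2 for 14 genes with the letters and 1.23 log2 for 16 without. For EpiLCs minus RFP-positive serum cells the medians were -1.82 and -1.86 log2. For 2i minus RFP-negative serum cells they were -1.75 and -0.84 log2.

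The rest of the pathway was followed in lists that exclude the 39. Of 19 interferon ligand genes, 3 passed the filter, Ifna1, Ifna6 and Ifnz, and Ifnb1 and Ifng did not. In EpiSCs against EpiLCs, Ifna6 fell by 0.56 log2 and Ifna1 by 0.52 log2, and in EpiLCs against RFP-positive serum cells none of the 3 was called. Of 9 receptor and kinase genes 8 passed. In EpiSCs 3 rose and 2 fell against EpiLCs, shares close to those of all genes (27.9% and 28.5%). Ifnlr1, a subunit of the type III interferon receptor, rose by 1.74 log2 (adjusted p = 1.7e-05), the kinase gene Tyk2 by 0.88 log2 (adjusted p = 1.5e-05) and the receptor gene Il10rb was at least 1.27-fold higher, while the interferon gamma receptor genes Ifngr1 and Ifngr2 fell by 0.49 and 0.86 log2. In EpiLCs against RFP-positive serum cells Tyk2 fell by 2.10 log2 (adjusted p = 4.5e-08), Jak2 rose by 1.85 log2 (adjusted p = 0.00022) and Ifngr1 by 1.55 log2 (adjusted p = 2.3e-06).

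Of 20 further signalling genes 15 passed. In EpiSCs against EpiLCs 5 rose and 2 fell, the share that rose being close to that of all genes (27.9% rose and 28.5% fell). Stat3 was higher by 1.90 log2 (limma, adjusted p = 6.4e-07) and the adaptor gene Myd88 by 0.99 log2, while the feedback inhibitor gene Socs3 was lower by 0.97 log2. In EpiLCs against RFP-positive serum cells 2 rose and 4 fell, the share that fell being close to that of all genes (28.3% rose and 26.7% fell), with Irf2 higher by 2.04 log2 (adjusted p = 5.5e-06) and Stat3 lower by 2.39 log2 (adjusted p = 1.1e-07). Tbk1, the kinase that activates IRF3, was called in neither comparison (-0.06 and 0.04 log2).

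A further list of 48 interferon-response genes had 21 measured. In EpiSCs 13 rose and 1 fell against EpiLCs, where 27.9% of all genes rose and 28.5% fell. The median difference of the list was 0.50 log2. Oas1g was at least 5.83-fold higher in EpiSCs (adjusted p = 7.6e-07), and Mov10, an RNA helicase gene, rose by 2.10 log2 (adjusted p = 1.2e-05) and Helz2 by 2.08 log2 (adjusted p = 1.1e-06), while Mlkl, the executor of necroptosis, fell by 0.65 log2. In EpiLCs 1 rose and 16 fell against RFP-positive serum cells, where 28.3% of all genes rose and 26.7% fell. The filter kept Tgtp1 and Oas1c through the serum gates of the double-reporter line alone, and Ube2l6 and Apol9b through serum groups alone. For these genes it worked towards lower values in EpiLCs. The median of the list was -0.98 log2. Oas1g was at least 14.5-fold lower in EpiLCs, Lgals9 at least 10.4-fold and Parp12 at least 9.1-fold, and Ly6e was the gene that rose (0.33 log2). Against MEFs, EpiSCs had 4 higher and 9 lower, EpiLCs 0 and 12, and single-reporter ESCs 9 and 8. All genes stood at 40% higher and 36.8% lower in EpiSCs, 41.9% and 36.3% in EpiLCs, and 38.7% and 39.6% in single-reporter ESCs. Both counts of single-reporter ESCs and the lower count of EpiSCs were thus near the background. Slfn2 and Ccl5 passed the filter through single-reporter cells alone, and Ube2l6 and Apol9b through serum groups alone, which worked towards higher values in single-reporter cells than in MEFs.

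Several genes had more than 1 probe, and the values above are those of the brightest detected one. For Irgm1 the probes went apart: the brightest stood at a mean of 14.45 in EpiLCs and 14.42 in 2i cells, against 14.92 in RFP-positive and 14.88 in RFP-negative serum cells, while another stood at 9.99 in EpiSCs, 6.14 in EpiLCs and 7.75 in 2i cells, against 10.84 in RFP-positive and 10.85 in RFP-negative serum cells. For Adar the chosen probe stood at 8.51 in EpiSCs and 8.66 in EpiLCs, against 9.0 in MEFs, while another stood at 7.95 in EpiSCs and 8.13 in EpiLCs, against 6.42 in MEFs. The direction for Adar against MEFs thus depends on the probe. For Usp18, the brightest probe was detected in MEFs (6.91) and the other two were not. The 3 probes of Usp18 were each undetected in EpiLCs and 2i cells and each detected on both arrays of every serum group.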

How the data were processed

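RNA of 14 samples was hybridised to Illumina mouse beadchips after biotin labelling, per the labels' protocols. Per the file headers, each array has a raw signal intensity and a detection p-value for every probe in the deposited scanner output. The submitters' processing notes name GenomeStudio 2011.1. The authors also deposited processed log2 values, which equal the quantile-normalized log2 scanner signal within 0.01 for 100% of values, with no background correction; no source used here states how they were made.

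Signals were processed with neqc (limma 3.58.1, R 4.3.3; normexp from detection p-values, offset 16, quantile, log2). Probes were named through the platform annotation, updated through gene identifiers. Each gene was represented by its brightest probe among those that some group detected (p-value under 0.05) on its 2 arrays alike. One limma model of group means (lmFit, eBayes; 7 residual degrees of freedom and 2.5 from the prior) was fitted to all 14 arrays, with Benjamini-Hochberg adjustment over 10481 genes and a call under 0.05. The number of arrays limits precision: the median half-width of a 95% interval was 0.289 log2. Where no array of a side detected a gene, "at least N-fold" takes the brighter mean over a floor, which on every array is the lowest detected signal or the gene's own, whichever is larger. Comparisons that include the 2i or the RFP-negative serum arrays are described with a 2-fold limit and no test. The script was tested on simulated data.

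The members and lists were chosen with earlier results of these data known, and any member or tested list gene could be named. Same-numbered arrays of different groups did not deviate together (21 pairs of groups, correlations -0.032 to 0.087), so arrays were not paired.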

Additional observations from a re-analysis of the deposited data

How the results depend on the processing

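Of 183 calls of interferon-stimulated genes in the 6 tested comparisons, 151 kept their sign and call under every alternative run. With each array left out in turn, the genes that rose and fell numbered 28 to 32 and 1 to 1 in EpiSCs against EpiLCs, 0 to 2 and 32 to 33 in EpiLCs against RFP-positive serum cells, 14 to 21 and 12 to 16 in single-reporter against RFP-positive serum cells, 20 to 25 and 8 to 9 in EpiSCs against MEFs, 5 to 6 and 19 to 22 in EpiLCs against MEFs, and 25 to 29 and 3 to 4 in single-reporter ESCs against MEFs. The 2-fold counts of 2i cells ranged from 21 to 25 lower and 0 to 0 higher against RFP-negative, and from 24 to 25 lower and 1 to 2 higher against RFP-positive serum cells. Genes that fell in EpiSCs against EpiLCs numbered 2 with no detection filter and 0 with only the arrays of both groups fitted. Genes lower in single-reporter ESCs than in MEFs numbered 5 without background correction, 5 in the authors' processed values and 5 with no detection filter. Genes at least 2-fold higher in 2i than in RFP-negative serum cells numbered 1 with every probe counted and 1 with probes averaged. Against RFP-positive serum cells, 1 was higher without background correction, in the authors' values and with probes averaged, and 15 lower without background correction and in the authors' values. In EpiLCs against 2i cells 9 were lower in those same 2 settings. The cause of these shifts was not tested. Signs turned for Adar in single-reporter against RFP-positive serum cells (-2.09 log2 with every probe, -1.06 with probes averaged), in EpiLCs against MEFs (1.71 and 0.97) and in EpiSCs against MEFs (1.53 and 0.94), for Irgm1 in single-reporter ESCs against MEFs (0.82, every probe), for Irf1 in EpiLCs against MEFs (1.15, every probe) and for Ifit3 in EpiSCs against MEFs (0.63 without the first EpiSC array, -3.36 without the second); for Adar, Irgm1 and Irf1 other probes of the gene set the value. With the replicate number as a block, the counts were 30 and 1, 2 and 33, 17 and 15, 22 and 9, 5 and 21, and 26 and 3 in the order above. The numbers did not pair the arrays. Median scaling shifted the median of all genes by up to 0.11 log2. Slide as a block was not run, since no slide is given in the sources used here. In EpiLCs 17 of 39 genes were not detected on either array, so signal over background limits what their differences show to bounds.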
